A study of Homo sapiens with 6 samples.

Results

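The genes described here encode the enzymes that use glutathione and thioredoxin and those that break down peroxide and superoxide, together with TXNIP, a protein that binds thioredoxin. They were chosen by name as a list of 43 genes, out of 28563 genes in the deposited table. Of the 43 genes, 41 had a row that could be matched by Ensembl identifier, and 37 of these reached the level set for the test, a mean of 0.5 FPKM over the 6 libraries. RNA was sequenced from cells that the paper names HepG2, an established human cell line from a liver tumor. The cells had 24 h with polydatin (PD), a plant stilbene glucoside, or with DMSO, the solvent of PD. The dose of PD was 336 µM according to the labels. The paper's methods give a slightly lower dose of PD. Both groups were dishes of the same cell line, and the paper describes no genetic change made to it for this experiment. Each group had 3 dishes and 3 libraries, and the p-values therefore measure the spread between dishes of a single experiment.

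Glutathione is a small thiol made from glutamate, cysteine and glycine. Glutathione peroxidases use it to reduce peroxides, glutathione S-transferases (GSTs) attach it to reactive compounds, glutaredoxins use it to reduce disulfides, and glutathione reductase returns its oxidized form to the reduced one. Thioredoxin does the corresponding work for the peroxiredoxins and is itself reduced by thioredoxin reductase, and both reductases draw their electrons from NADPH. Cytosol and mitochondria hold separate sets of several of these enzymes, encoded by different genes, and liver cells are known for large amounts of many of them.

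The values are FPKM, that is, fragments counted on a gene relative to the length of the gene and the total of its library. The DMSO libraries held 16763318 to 17274927 fragments, the PD libraries held 16308476 to 18071632, and no pair of libraries was a duplicate. The labels name hepatocellular carcinoma cells, but of 12 hepatocyte markers only 5 were in the table analysed here, and RBP4 was the single one to reach 1 FPKM in any library. APOA1, SERPINA1, HNF4A and TF stayed at or below 0.172 FPKM, and SERPINA1 and TF were listed at 0 in all DMSO libraries, while ALB and AFP were not analysed here. The summed level of the hepatocyte markers was 0.462 to 0.544 FPKM in DMSO and 1.28 to 1.77 FPKM in PD. This difference came mostly from RBP4, with 0.391 FPKM in DMSO and 1.30 FPKM in PD, on 8 to 44 fragments per library. APOA1, SERPINA1, HNF4A and TF had at most 13 fragments in any library. Of 4 epithelial markers, KRT8, KRT18 and EPCAM reached 1 FPKM, and the epithelial sum was 95.4 to 101.4 FPKM in DMSO and 113.9 to 119.9 FPKM in PD. KRT8 alone rose, from 50.1 to 68.9 FPKM, KRT18 and EPCAM did not pass the test, and CDH1 was near absent and lower in PD, with 0.127 FPKM in DMSO and 0.0343 FPKM in PD. Of 4 mesenchymal markers, 3 reached 1 FPKM, with sums of 27.2 to 28.8 FPKM in DMSO and 35.5 to 36.5 FPKM in PD, and here VIM alone rose, from 20.7 to 29.6 FPKM. ZEB1 fell from 3.39 to 2.62 FPKM (adjusted p of 0.016), COL1A1 did not pass, and FN1 was under the minimum for the test. Endothelial and blood markers stayed at or below 0.039 FPKM. The hepatocyte markers in the table were thus low or near absent in cells that the paper names HepG2. The identity of the cells was not tested. The part of these marker differences in the results below was not tested. In bulk RNA, fewer cells of a type and less RNA per cell cannot be told apart.

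PD-treated cells had more mRNA for most of these enzymes. Of the 37 tested genes, 26 (70.3%) were higher and 3 (8.11%) were lower in PD (adjusted p of at most 0.05), while 8 did not pass the test (limma on log2(FPKM + 1), adjusted over 14400 genes). Over all 14400 genes tested, 58.1% passed, 31.9% as higher and 26.2% as lower. The share of higher genes was thus above the background and the share of lower genes below it. These shares are also the background for the counts by family below. With upper quartile scaling 21 listed genes were higher and 5 lower, beside 3798 and 4675 of 14407 genes. The median log2 fold change was 0.303 over the 37 genes and 0.012 over all genes. In 26 genes all PD libraries lay above all DMSO libraries, and in 4 genes all lay below, beside 35.6% and 29.9% of all genes, or 65.4% in either direction. Changes of at least 2-fold, which with the adjusted p define a differentially expressed gene (DEG), were rarer. TXNIP and GSTT2B were upregulated DEGs and TXNRD2 was a downregulated DEG, that is, 3 of the 37 genes, beside 3.61% of all genes, with 2.04% upregulated and 1.57% downregulated. This comparison depended on how low values were handled, with 4 listed genes and 1248 of 14400 genes as DEGs for a pseudocount of 0.1, and 4 listed genes and 1734 of 15068 genes for limma voom on fragments, so nothing is read from it. All fold changes were taken after adding 1 to the FPKM, so those of weakly expressed genes come out too small.

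**Figure D1:**
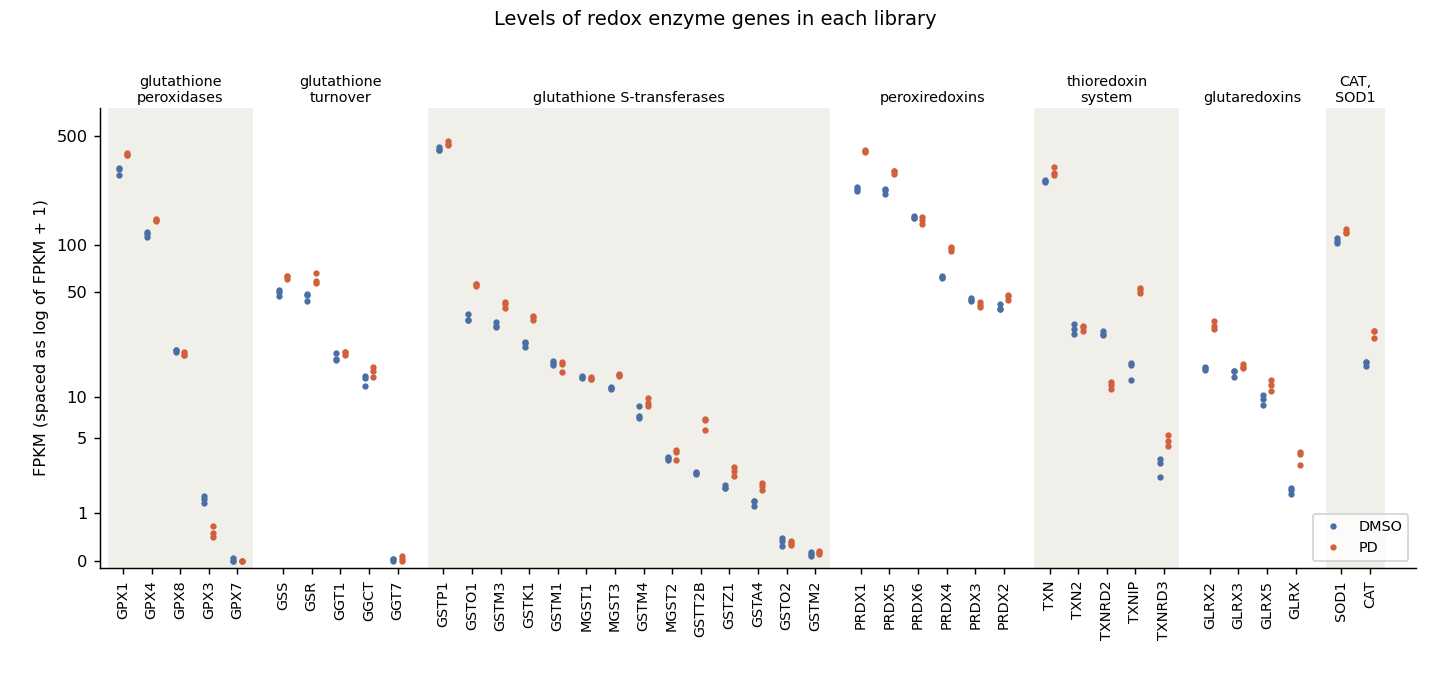
Level of the 41 redox enzyme genes with a row in the table, in FPKM on an axis spaced as the logarithm of FPKM + 1, with 1 point for each of the 3 DMSO and 3 PD libraries and the genes ordered by their DMSO mean within each family. GSTP1 was the most abundant in both groups, TXNIP, PRDX1 and GLRX2 moved up, and TXNRD2 moved down.

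In DMSO, 8 genes had a mean of at least 100 FPKM, a level scaled for gene length. GSTP1 led with 412.4 ± 12.1 FPKM (SD, n = 3), followed by GPX1 with 300.2 ± 14.9, TXN with 257.3 ± 5.29, PRDX1 with 228.0 ± 7.57 and PRDX5 with 222.3 ± 9.42. PRDX1 and PRDX5 did not differ beyond their spread. PRDX6, GPX4 and SOD1 completed this group with 150.7, 117.5 and 107.1 FPKM. PRDX1 moved from the 4th place in DMSO to the 2nd in PD, TXNIP moved from the 24th to the 13th, and TXNRD2 moved from the 17th to the 29th. At the low end, GPX7, GGT7, GSTM2 and GSTO2 had means under 0.5 FPKM and were not tested. GPX7 was listed at 0 in 5 libraries and had 1 fragment in the other. GSTO2 had 40 to 68 fragments per library, and its levels of 0.322 ± 0.0784 FPKM in DMSO and 0.295 ± 0.0352 FPKM in PD (SD, n = 3 each) overlapped.

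The glutathione peroxidases were led by GPX1, the abundant enzyme that reduces hydrogen peroxide, and GPX4, which reduces lipid peroxides in membranes. Both carry selenocysteine in the active site, which is encoded by a TGA codon that elsewhere ends translation, and so does the secreted enzyme GPX3. These TGA codons are shown because the 5 genes on the list with such a codon include 2 of the 3 that fell. The coding sequence around each (GRCh38, GENCODE release 44), with the selenocysteine codon in capitals, is as follows, at chr3:49358132-49358134 on the minus strand for GPX1, chr19:1105403-1105405 on the plus strand for GPX4 and chr5:151025469-151025471 on the plus strand for GPX3.
GPX1: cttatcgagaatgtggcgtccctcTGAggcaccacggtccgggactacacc
GPX4: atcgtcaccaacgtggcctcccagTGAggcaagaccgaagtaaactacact
GPX3: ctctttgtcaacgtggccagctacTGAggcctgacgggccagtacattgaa
The TGA is codon 49 of GPX1 and codon 73 of both GPX3 and GPX4.

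GPX1 measured 307.8, 283.1 and 309.7 FPKM in DMSO and 374.5, 388.5 and 377.1 FPKM in PD, and every PD library lay above every DMSO library. Its log2 fold change was 0.34 ± 0.04 (SE), with an adjusted p of 0.00028. In 65.5% of its 100-base windows the transcript of GPX1 matches other annotated genes, among them the pseudogene GPX1P1, so its level is less certain. GPX4 had 118, 114 and 121 FPKM in DMSO and 146, 146 and 144 FPKM in PD, with a log2 fold change of 0.30 and an adjusted p of 0.00014.
GPX3 went the other way, with 1.48, 1.57 and 1.33 FPKM in DMSO and 0.420, 0.667 and 0.504 FPKM in PD. Only 72 to 83 fragments in DMSO and 24 to 37 fragments in PD stood behind these values, but the groups did not overlap. The log2 fold change of GPX3 was -0.69 ± 0.10 (SE) with an adjusted p of 0.00074. With a pseudocount of 0.1 it was -1.32, and with limma voom on the fragments it was -1.47, which is a fall of over 2-fold. GPX8, an enzyme of the endoplasmic reticulum (ER) without selenocysteine, had 20.6 ± 0.313 FPKM in DMSO and 19.6 ± 0.567 FPKM in PD (SD, n = 3 each). Its PD libraries lay below its DMSO libraries, at an adjusted p of 0.14, which became 0.012 with scaling by the upper quartile.

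Among the genes that make, recycle and break down glutathione, GSR and GSS rose and GGCT and GGT1 did not pass the test. GSR encodes glutathione reductase. Its levels were 48.4, 47.9 and 43.7 FPKM in DMSO and 59.2, 66.5 and 57.0 FPKM in PD, with no overlap between the groups and a log2 fold change of 0.38 (adjusted p of 0.0019). GSS, which encodes glutathione synthetase, the enzyme of the last step of synthesis, had 51.2, 47.4 and 49.8 FPKM in DMSO and 60.3, 63.2 and 63.3 FPKM in PD, a log2 fold change of 0.33 (adjusted p of 0.00031). Exons of GSS overlap MYH7B on the opposite strand. GGCT, a cyclotransferase of gamma-glutamyl compounds, had a log2 fold change of 0.17 at an adjusted p of 0.073, and 0.23 at an adjusted p of 0.034 without PD replicate 1. GGT1, a transferase on the cell surface that starts the breakdown of glutathione outside the cell, had a log2 fold change of 0.09 at an adjusted p of 0.18, and 0.13 at an adjusted p of 0.036 without DMSO replicate 3. GGT1 shares 86.4% of its 100-base windows with related genes and GGCT 32.3%, so both are less certain.

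The GSTs were the largest family on the list, with 14 genes and 12 tested. Of these, 9 rose, none fell, and GSTM1, MGST1 and MGST2 did not pass the test. GSTT2B, a GST of the theta class on chromosome 22 (chr22:23957414-23961195, minus strand, GRCh38), had the largest rise of the family on this scale. It had 2.58, 2.55 and 2.66 FPKM in DMSO and 6.95, 5.76 and 6.86 FPKM in PD, based on 47 to 50 fragments per DMSO library and 111 to 138 per PD library. All PD libraries were more than 2 times as high as any DMSO library, and the log2 fold change was 1.06 ± 0.07 (SE) with an adjusted p of 2.5e-05. Scaled by the upper quartile, the log2 fold change was 0.99, just short of 2-fold. In 80.2% of its 100-base windows GSTT2B is identical to its neighbor GSTT2, which itself had 0.0998 ± 0.0864 FPKM in DMSO and 0.307 ± 0.0909 FPKM in PD (SD, n = 3 each), so fragments of both genes may not be separated.

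GSTO1, an omega-class GST that also reduces disulfides and arsenic compounds, followed. Its levels were 36.0, 32.7 and 32.9 FPKM in DMSO and 54.7, 56.4 and 56.1 FPKM in PD, and the groups were far apart for a spread of at most 1.87 FPKM (SD). The log2 fold change was 0.70 ± 0.04 (SE) with an adjusted p of 1.6e-05. GSTK1, a kappa-class enzyme of mitochondria and peroxisomes, had 22.9 ± 1.01 FPKM in DMSO and 34.0 ± 0.994 FPKM in PD (SD, n = 3 each), which is a log2 rise of 0.55 with an adjusted p of 4.2e-05. GSTM3, a mu-class GST, rose by 0.42 on the log2 scale. The other rises were those of GSTA4 (0.34), which conjugates aldehydes from lipid peroxidation, GSTZ1 (0.33), an enzyme of tyrosine breakdown, MGST3 (0.28), a GST of the ER membrane, GSTM4 (0.23) and GSTP1 (0.12), with adjusted p between 0.0002 and 0.038 for these and GSTM3. GSTA4 rested on 45 to 76 fragments per library.
GSTP1, the pi-class GST and the most abundant of the 41 genes, had 406, 405 and 426 FPKM in DMSO and 436, 461 and 444 FPKM in PD. The groups did not overlap, but the rise was small, and its adjusted p went from 0.019 to 0.56 with upper quartile scaling, to 0.075 with median-of-ratios scaling and to 0.093 without the filter on FPKM. Leaving out DMSO replicate 1, DMSO replicate 2 or PD replicate 2 gave GSTP1 an adjusted p of 0.062, 0.058 or 0.065. For GSTM4, leaving out DMSO replicate 2 or 3 or PD replicate 1 or 2 gave adjusted p of 0.11, 0.1, 0.075 and 0.12, upper quartile scaling gave 0.12, and no filter on FPKM gave 0.091. GSTM1 had 17.1 ± 0.570 FPKM in DMSO and 16.3 ± 1.203 FPKM in PD (SD, n = 3 each), with an adjusted p of 0.36, and shares 37.9% of its windows with GSTM2 and GSTM4. The membrane enzymes MGST1 and MGST2 had adjusted p of 0.59 and 0.25.

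Promoters of the list were searched for the core of the antioxidant response element, which NRF2 binds, written TGACNNNGC and read on both strands from 250 bases before to 50 bases after each start site in RefSeq (GRCh38.p14). A promoter was at hand for 33 of the 43 genes. The core was found in 6 of their 48 windows (12.5%), beside 4687 of all 35116 promoter windows (13.3%), so the share was close to the background. The genes were GGT1, GSTA4, GSTM1, GSTO1, GSTP1 and MGST1, of which 3 rose and 3 did not pass the test. Those of GSTP1, the most abundant gene, and GSTO1, the largest rise among the GSTs with a promoter at hand, are shown with the matches in capitals. The stretch of GSTP1 is chr11:67583692-67583811 on the plus strand, from base -120 to -1 before the start site, with the match at -66 to -58. The stretch of GSTO1 is chr10:104254642-104254771 on the plus strand, from base -250 to -121, with matches at -226 to -218 and -161 to -153.
GSTP1: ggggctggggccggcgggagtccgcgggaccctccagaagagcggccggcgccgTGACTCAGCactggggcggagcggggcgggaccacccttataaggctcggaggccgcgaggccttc
GSTO1: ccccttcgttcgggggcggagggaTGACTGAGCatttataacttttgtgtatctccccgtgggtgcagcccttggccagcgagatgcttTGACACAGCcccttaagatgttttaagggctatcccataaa
A match describes the sequence and does not show that a factor binds there.

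All 6 peroxiredoxins, which reduce peroxides through a reactive cysteine, were tested, with 4 higher, 1 lower and 1 that did not pass. PRDX1, the main peroxiredoxin of the cytosol (chr1:45510914-45542732, minus strand), gained the most FPKM of any gene on the list. It had 228, 221 and 236 FPKM in DMSO and 392, 398 and 407 FPKM in PD. The mean difference of 170.9 FPKM was over 20 times the SD of either group, and the log2 fold change was 0.80 ± 0.03 (SE) with an adjusted p of 3.5e-06. Exons of PRDX1 overlap MMACHC on the opposite strand, which had 2.93 FPKM in DMSO and 2.29 FPKM in PD, a small level beside that of PRDX1.
PRDX4, the peroxiredoxin of the ER, had 62.1, 61.2 and 63.7 FPKM in DMSO and 98.03, 95.97 and 92.17 FPKM in PD, a log2 fold change of 0.60 with an adjusted p of 1.1e-05. PRDX5, found in mitochondria, peroxisomes and cytosol, had 222.3 ± 9.42 FPKM in DMSO and 294.4 ± 9.14 FPKM in PD (SD, n = 3 each), which is a log2 rise of 0.40. PRDX2, the other abundant cytosolic form, rose by 0.22 on the log2 scale with an adjusted p of 0.0028. PRDX6, which reduces phospholipid peroxides with glutathione, had 149, 150 and 153 FPKM in DMSO and 144, 151 and 136 FPKM in PD. These ranges overlapped and the adjusted p was 0.18, but 0.021 with upper quartile scaling, where its log2 fold change was -0.15.
PRDX3, the peroxiredoxin of mitochondria, had 43.8, 44.5 and 45.8 FPKM in DMSO and 42.9, 39.9 and 41.1 FPKM in PD. Its PD libraries lay just below its DMSO libraries, with a log2 fold change of -0.11 and an adjusted p of 0.036. The call was lost without DMSO replicate 1, 2 or 3 (adjusted p of 0.051, 0.069 and 0.093), without PD replicate 2 or 3 (0.12 and 0.094) and without the filter on FPKM (0.058), whereas the fold change stayed below 0 in each.

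**Figure D2:**
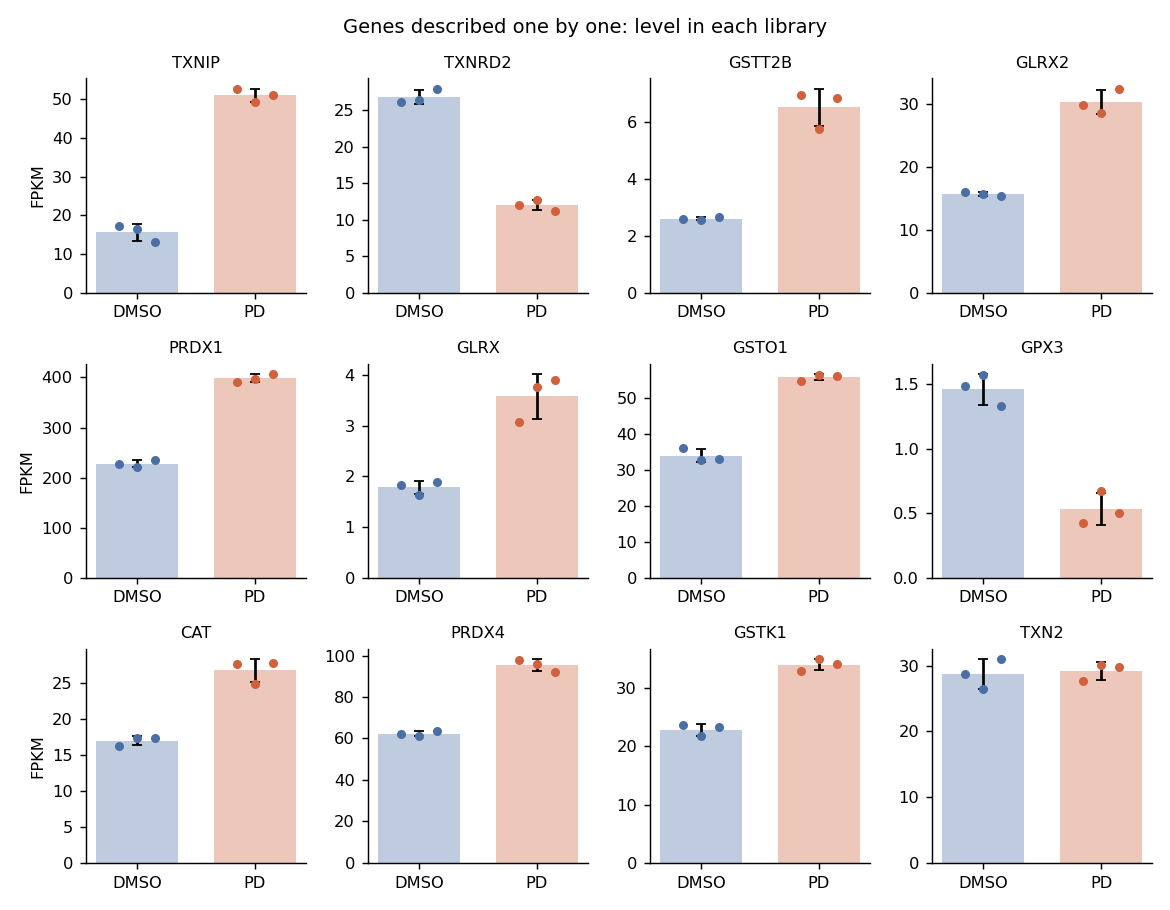
Level in FPKM of 12 genes in each library, with bars for the mean, error bars for the SD (n = 3) and points for the libraries, and with an axis from 0 in each panel. TXNIP rose to 51.02 FPKM and TXNRD2 fell to 11.97 FPKM without overlap of the groups, whereas those of TXN2 overlapped.

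On the FPKM + 1 scale, the thioredoxin genes held both the largest rise and the largest fall on the list. As a ratio of mean FPKM in PD to DMSO, GPX3 fell by more than TXNRD2 (0.363 beside 0.446). TXNIP, which binds the active site of reduced thioredoxin and also limits the uptake of glucose, lies at chr1:145992435-145996579 on the minus strand. It had 17.1, 16.5 and 13.1 FPKM in DMSO and 52.6, 49.2 and 51.2 FPKM in PD, based on 812 to 1071 fragments per DMSO library and 3026 to 3448 per PD library. The ratio of the means was 3.28, every PD library was far above every DMSO library, and the log2 fold change was 1.66 ± 0.09 (SE) with an adjusted p of 1e-05. Across all alternatives the log2 fold change of TXNIP was between 1.55 and 1.73.
TXNRD2, the thioredoxin reductase of mitochondria (chr22:19875517-19941820, minus strand), had 26.1, 26.4 and 28.0 FPKM in DMSO and 11.99, 12.65 and 11.26 FPKM in PD. The mean in PD was 0.446 of that in DMSO, based on 3709 to 4006 fragments per DMSO library and 1538 to 1857 per PD library, and the groups were far apart. The log2 fold change was -1.10 ± 0.05 (SE) with an adjusted p of 5.7e-06, and across all alternatives it was between -1.18 and -1.06. Exons of TXNRD2 overlap another gene on the opposite strand, and the sources used here do not say whether counting used strand, so its level is less certain.

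TXN, the thioredoxin of the cytosol, had 262.3, 251.8 and 257.9 FPKM in DMSO and 291.5, 314.4 and 282.0 FPKM in PD, a log2 fold change of 0.20 with an adjusted p of 0.0054, which was 0.073 with upper quartile scaling. TXN2, the thioredoxin of mitochondria, had 28.8, 26.5 and 31.0 FPKM in DMSO and 27.7, 30.2 and 29.7 FPKM in PD. Its groups overlapped, with a log2 fold change of 0.02 at an adjusted p of 0.78, and the sign turned to -0.06 with upper quartile scaling and to -0.001 with median-of-ratios scaling. Leaving out DMSO replicate 2 or PD replicate 2 gave TXN2 a log2 fold change of -0.033 or -0.001. The level of TXN was much higher than that of TXN2 in every library. Both thioredoxins carry the same active-site motif, Cys-Gly-Pro-Cys, and its codons are shown in capitals within the coding sequence (GRCh38, GENCODE release 44) because the proteins, unlike their levels, are alike at this site. The stretch of TXN lies within chr9:110251364-110251411, and that of TXN2 within chr22:36476823-36480588, where it spans an intron, both on the minus strand.
TXN: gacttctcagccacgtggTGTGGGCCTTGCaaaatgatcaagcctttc
TXN2: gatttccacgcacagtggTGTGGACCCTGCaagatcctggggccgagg
The motif is at codons 32 to 35 of 105 in TXN and at codons 90 to 93 of 166 in TXN2, whose protein starts with a mitochondrial targeting sequence.

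TXNRD3, a thioredoxin reductase best known from testis, had 2.98 ± 0.535 FPKM in DMSO and 4.78 ± 0.469 FPKM in PD (SD, n = 3 each), which is a log2 rise of 0.54 with an adjusted p of 0.0043. The enzymes TXNRD2 and TXNRD3 and their cytosolic relative TXNRD1, which was not on the list, end in a cysteine and a selenocysteine followed by a glycine. The ends of their coding sequences (GRCh38, GENCODE release 44), with the selenocysteine codon in capitals, are nearly the same over the last codons, although the levels of the genes moved in different directions. The capitals lie at chr22:19877111-19877113 (minus strand) in TXNRD2, chr3:126607911-126607913 (minus strand) in TXNRD3 and chr12:104348413-104348415 (plus strand) in TXNRD1.
TXNRD2: ctggaccccacggtgacaggctgcTGAggg
TXNRD3: ctagacatcactcagaaaggctgcTGAggc
TXNRD1: gcaagcatcctccaggctggctgcTGAggt
Of the 5 listed genes with a selenocysteine codon, GPX1, GPX4 and TXNRD3 rose and GPX3 and TXNRD2 fell, and their median log2 fold change was 0.303. Of the 32 tested genes without this codon, 23 rose, PRDX3 fell and 8 did not pass the test, with a median of 0.292.

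The promoter of TXNIP was also searched, because it is known for a pair of E boxes that MondoA and ChREBP bind in response to glucose. The letters CACGNG, repeated after a gap of 5 bases and read on both strands, were found in 20 of 35116 promoter windows (0.057%) and, among the 48 windows of the listed genes, in that of TXNIP alone. The stretch shown is chr1:145996580-145996699 on the minus strand (GRCh38.p14), from base -120 to -1, with the match at -88 to -72 in capitals.
TXNIP: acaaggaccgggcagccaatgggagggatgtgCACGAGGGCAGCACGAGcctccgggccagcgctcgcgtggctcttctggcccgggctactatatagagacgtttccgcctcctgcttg
Because the search was made for this known site, its match in TXNIP describes the sequence and is no test. Binding of a factor to this sequence was not measured in these cells.

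All 4 glutaredoxins were higher in PD. GLRX2, a glutaredoxin of mitochondria (chr1:193090866-193106114, minus strand), had 16.04, 15.71 and 15.34 FPKM in DMSO and 29.9, 28.6 and 32.4 FPKM in PD. The level nearly doubled without overlap of the groups, with a log2 fold change of 0.90 ± 0.05 (SE) and an adjusted p of 1.1e-05. Exons of GLRX2 overlap RO60 on the opposite strand, whose ranges overlapped between the groups, with means of 7.76 FPKM in DMSO and 8.12 FPKM in PD. GLRX, the classical glutaredoxin of the cytosol, had 1.82, 1.64 and 1.89 FPKM in DMSO and 3.07, 3.76 and 3.91 FPKM in PD. The ratio of its means was 2.01, but on the FPKM + 1 scale the log2 fold change was 0.71, with an adjusted p of 0.00036.
GLRX5, which hands on iron-sulfur clusters in mitochondria, had 9.56 ± 0.738 FPKM in DMSO and 12.1 ± 1.09 FPKM in PD (SD, n = 3 each). This is a log2 rise of 0.30 with an adjusted p of 0.011. Exons of GLRX5 overlap other genes on the opposite strand, so its level is less certain. GLRX3, an iron-sulfur protein of the cytosol, rose by 0.14 on the log2 scale with an adjusted p of 0.032. That of GLRX3 was 0.29 with upper quartile scaling, 0.053 with median-of-ratios scaling and 0.054 without the filter on FPKM. Without DMSO replicate 2 or without PD replicate 1, 2 or 3 it was 0.089, 0.066, 0.051 and 0.11.

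CAT, the catalase of peroxisomes, had 16.3, 17.4 and 17.3 FPKM in DMSO and 27.6, 24.9 and 27.8 FPKM in PD. The groups did not overlap, and the log2 fold change was 0.63 ± 0.05 (SE) with an adjusted p of 5.6e-05. SOD1, the copper and zinc superoxide dismutase found mainly in the cytosol, had 106, 103 and 112 FPKM in DMSO and 119, 127 and 122 FPKM in PD. This was a smaller rise of 0.20 on the log2 scale with an adjusted p of 0.0039, which was 0.076 with upper quartile scaling. SOD2 and SOD3, the enzymes of mitochondria and of the extracellular space, were not analysed here, so the mitochondrial class lacks SOD2, and its pair with SOD1 was not compared.

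**Figure D3:**
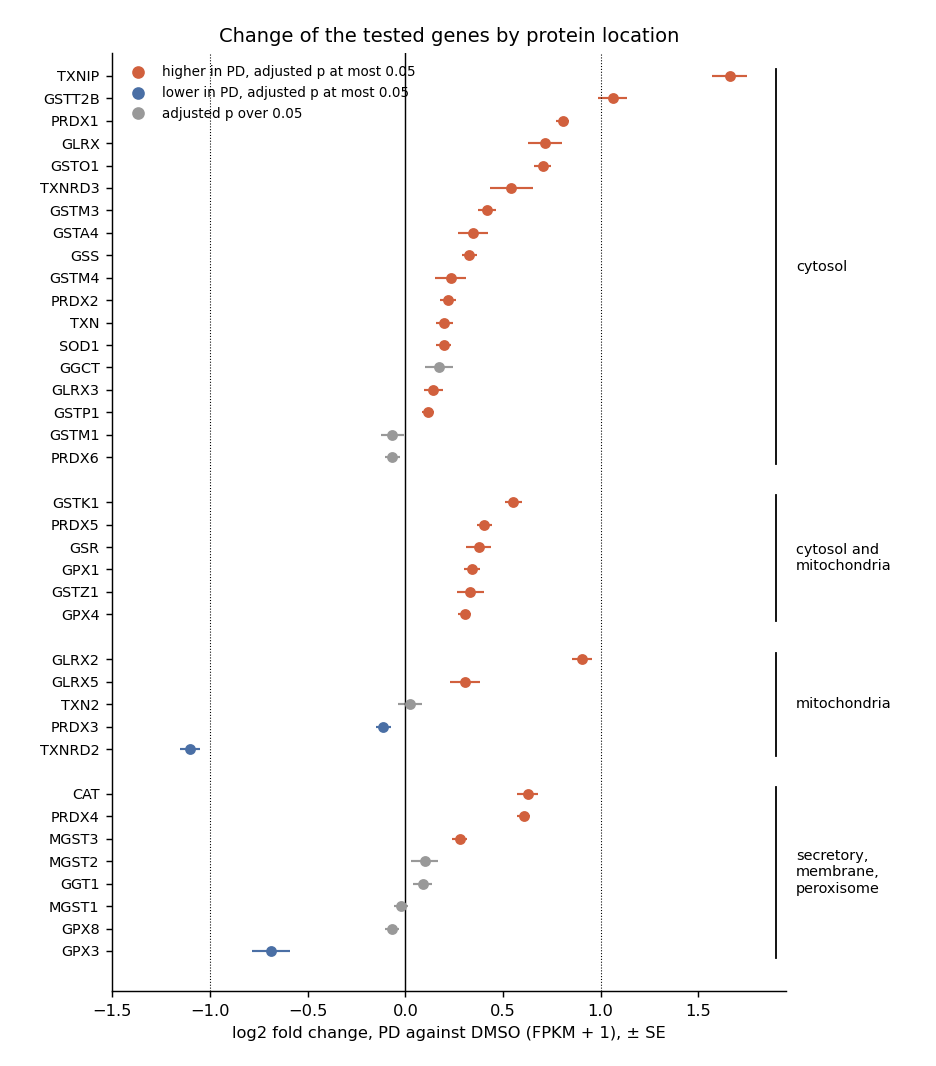
Log2 fold change of PD against DMSO on the FPKM + 1 scale for the 37 tested genes, grouped by where the protein is found, with error bars for the SE from limma and dotted lines at 2-fold. Of the cytosolic genes 15 of 18 were higher and none was lower, while the 5 mitochondrial genes ran from -1.10 to 0.90. Over all 14400 genes tested, 31.9% were higher and 26.2% lower.

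Cytosolic and mitochondrial enzymes were then compared, with each protein placed by its textbook location. Of 20 genes for cytosolic proteins, 18 were tested, 15 (83.3%) rose, none fell and GGCT, GSTM1 and PRDX6 did not pass the test. Their median log2 fold change was 0.28. Over all 14400 genes tested, 31.9% were higher and 26.2% lower, with a median of 0.012. With upper quartile scaling 10 of the cytosolic genes were higher and 1, PRDX6, was lower, beside 3798 and 4675 of 14407 genes. The number that rose was 12 without the filter on FPKM, 12 without DMSO replicate 2 and 12 without PD replicate 2. Of 6 genes for mitochondrial proteins, 5 were tested. GLRX2 and GLRX5 rose, TXNRD2 and PRDX3 fell and TXN2 did not pass, and their median of 0.022 turned to -0.06 with upper quartile scaling and to -0.001 with median-of-ratios scaling. Of the 3 genes on the list that fell, 2 were thus mitochondrial, and the third was the secreted GPX3. The call of PRDX3 depended on single libraries, as given above, so the count of mitochondrial genes that fell was 1 or 2. With 5 genes tested, such counts are too few to be set against the shares over all genes.
GPX1, GPX4, GSR, GSTK1, GSTZ1 and PRDX5, whose products are found in mitochondria and also elsewhere, all rose, with log2 fold changes of 0.30 to 0.55. Counted as mitochondrial, they made 8 of 11 tested genes higher and 2 lower, with a median of 0.333. The difference between cytosol and mitochondria therefore depended on where these 6 genes were placed. Among the 8 tested genes for proteins of the ER, membranes, peroxisomes or the extracellular space, CAT, PRDX4 and MGST3 rose, GPX3 fell and 4 did not pass.

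Because the classes hold few genes, partners with the same function in both compartments were compared directly. For each library the log2 ratio of the mitochondrial to the cytosolic gene was taken on the FPKM + 1 scale, and PD was compared with DMSO by a two-sided exact permutation test, which with 3 libraries against 3 cannot give a p below 0.1. Of 7 pairs planned, 6 were compared and 4 showed no overlap between the groups, 3 with the mitochondrial gene lower relative to its partner and 1 with it higher. Of all single genes, 65.4% did not overlap, but a ratio of 2 genes is a different measure, and its background was not computed. The count itself is therefore no result about the pairs. For peroxiredoxins, the log2 ratio of PRDX3 to PRDX1 was -2.35, -2.29 and -2.34 in DMSO and -3.16, -3.29 and -3.28 in PD, a difference of -0.92 (exact p of 0.1). That ratio dropped mainly through the rise of PRDX1. For thioredoxin reductases, the log2 ratio of TXNRD2 to TXNRD1 was -3.22, -3.26 and -3.08 in DMSO and -3.89, -3.91 and -4.01 in PD, a difference of -0.75 (exact p of 0.1). Here both genes fell, TXNRD1 from 252.8 ± 8.80 to 197.7 ± 6.37 FPKM (SD, n = 3 each), and TXNRD2 fell by more.
The log2 ratio of TXN2 to TXN was lower in PD, with a difference of -0.177 (exact p of 0.1). The groups were separated by a narrow margin, from -3.203 in the highest PD library to -3.200 in the lowest DMSO library, and they overlapped with a pseudocount of 0.1, where the exact p was 0.2. The glutaredoxin pairs overlapped. GLRX2 against GLRX differed by 0.19 (exact p of 0.2), which turned to -0.019 with a pseudocount of 0.1, and GLRX5 against GLRX3 by 0.161 (exact p of 0.2). IDH2 and IDH1, the mitochondrial and cytosolic isocitrate dehydrogenases that make NADPH, were not on the list and served as a pair for the supply of electrons. Their log2 ratio was -2.26, -2.45 and -2.36 in DMSO and -0.922, -0.858 and -0.874 in PD, a difference of 1.47 (exact p of 0.1) in favor of the mitochondrial gene. After adjustment over 6 pairs, none of these p-values could have passed 0.05.

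**Figure D4:**
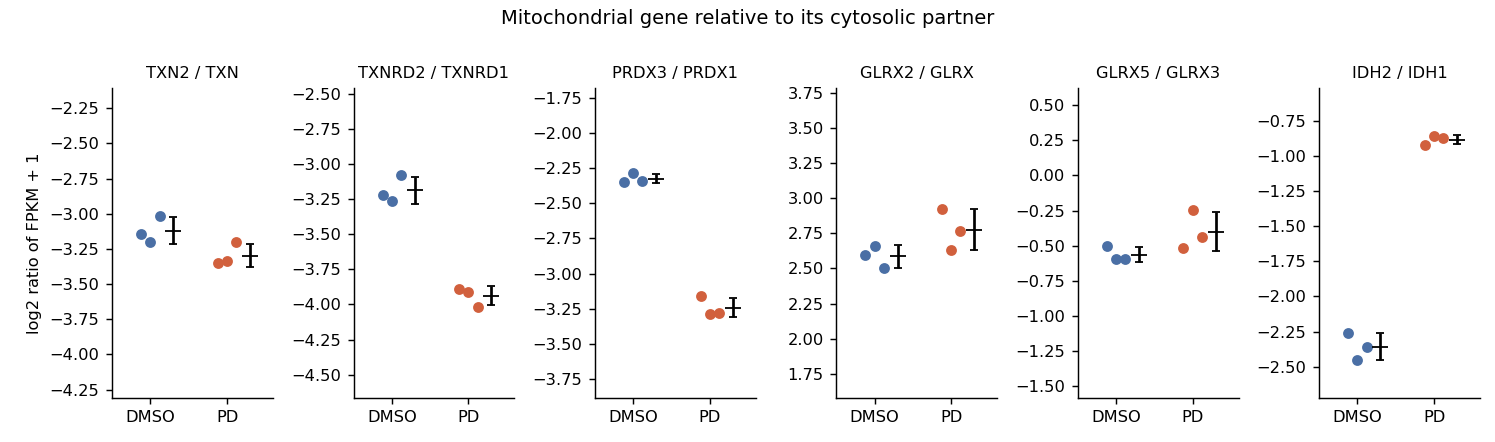
Log2 ratio of the mitochondrial to the cytosolic gene (FPKM + 1) in each library for 6 pairs, with the mean and SD (n = 3) beside the points and with axes of equal length. PD lay below DMSO for TXN2/TXN, TXNRD2/TXNRD1 and PRDX3/PRDX1, above it for IDH2/IDH1, and overlapped it for both glutaredoxin pairs.

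A further 49 genes of glutathione supply and breakdown, thioredoxin-like proteins, selenoprotein synthesis and NADPH supply were looked at in the same way. Of the 41 that were tested, 25 (61.0%) rose, 4 (9.76%) fell and 12 did not pass the test. Over all 14400 genes tested, 31.9% were higher and 26.2% lower. The median log2 fold change was 0.274 over the 41 genes and 0.012 over all genes. The upregulated DEGs were IDH2 and CCS. IDH2 had 7.90, 6.70 and 7.08 FPKM in DMSO and 27.7, 29.5 and 29.8 FPKM in PD, a log2 fold change of 1.87. CCS, the chaperone that loads copper into SOD1, had 7.02, 6.39 and 7.75 FPKM in DMSO and 16.6, 16.9 and 16.5 FPKM in PD, a log2 fold change of 1.13 with an adjusted p of 1.1e-05. For comparison, SOD1 itself rose by 0.20 on the same scale.
MSRB1, a selenoprotein that reduces oxidized methionine, and EEFSEC, the elongation factor that brings selenocysteine to the ribosome, had the next largest rises, of 0.92 and 0.90 on the log2 scale, and EEFSEC overlaps RUVBL1 on the opposite strand. The ratios of mean FPKM were 2.01 for MSRB1 and 2.00 for EEFSEC, but neither reached 2-fold on the FPKM + 1 scale. IDH1 had a log2 fold change of 0.39. NADK, which makes NADP in the cytosol, and TXNRD1 had the largest falls, of -0.36 and -0.35, with adjusted p of 0.00013 and 0.00016. The PD libraries of NADK had 23.9, 24.6 and 24.4 FPKM beside 31.9, 30.4 and 32.4 FPKM in DMSO, so the groups did not overlap.

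**Figure D5:**
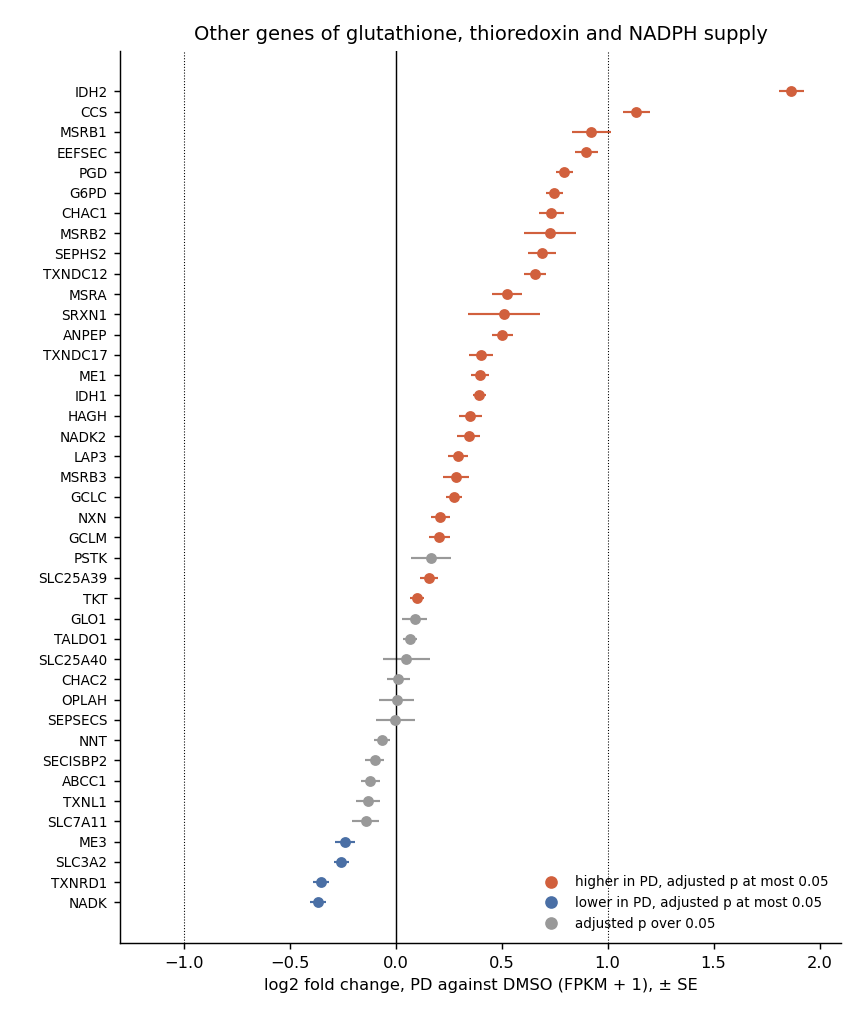
Log2 fold change of PD against DMSO on the FPKM + 1 scale for the 41 tested genes of glutathione, selenoprotein and NADPH supply that were not on the list, with error bars for the SE from limma and dotted lines at 2-fold. IDH2 and CCS passed 2-fold on this scale, and NADK and TXNRD1 stood at the lower end.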

How the data were processed

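RNA-seq was carried out on cells that the paper names HepG2, after 24 h of PD or DMSO. There were 3 libraries per group, and groups were taken from the sample labels. The authors purified mRNA on poly-T beads and prepared it with an NEBNext Ultra kit. HISAT2 placed the read pairs on hg38 and HTSeq 0.6.0 counted them. From these counts the authors deposited FPKM per gene, and they tested counts with DESeq2. Whether counting used strand is not given in the sources used here, so overlapping genes are less certain. Among tested genes whose overlap is not given above, GSTM1, GSTM3, MGST2 and PRDX2 also have exons that overlap genes on the opposite strand.

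The deposited FPKM were analysed with limma 3.58.1 in R 4.3.3 on log2(FPKM + 1), with a trend in the prior variance and no covariates, where the mean over the 6 libraries reached 0.5 FPKM (14400 genes), and p-values were adjusted by Benjamini-Hochberg. An adjusted p of 0.05 or less counted as a call, and DEGs also changed by at least 2-fold on the FPKM + 1 scale. The study used the same cutoffs with DESeq2, a different measure of change, so its DEGs and those given here are not directly comparable. Of 28563 genes, 28161 had a symbol in GENCODE release 44. Whole fragments were worked back from FPKM steps, by exon length for 12772 genes and by a common step for the other 15791, and about 99.7% of each library total was accounted for. They give the depth and feed limma voom, which kept genes with at least 10 fragments in 3 libraries. Exact permutation tests used scipy 1.17.1. The scripts were tested on simulated data.

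All 43 listed genes are named. Of the 49 other genes, those named are DEGs, partners of a pair, and otherwise the 2 largest rises and 2 largest falls, while MMACHC, RO60 and GSTT2 are named for their overlap or likeness with a listed gene. The list, the classes and the tests were chosen with earlier results of these data known. Alternatives were a pseudocount of 0.1, no filter, replicate number as a block, upper quartile or median-of-ratios scaling, voom, leaving out each library, and another placing of genes of both compartments. Values of 1 item are not reported here.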

Additional observations from a re-analysis of the deposited data

How the results depend on the processing

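The direction of 36 of the 37 tested genes was the same under every alternative, TXN2 being the exception. No call of these genes changed with a pseudocount of 0.1 or with voom. Over all genes these settings called 1248 and 1734 DEGs in place of 520, and each also handles low values differently. Scaling by the upper quartile called 3798 genes higher and 4675 lower, a share of 44.8% higher, in place of 4588 and 3780 (54.8%), and moved the median of all genes from 0.012 to -0.054. With it 21 listed genes were higher in place of 26 and 5 lower in place of 3, 10 cytosolic genes were higher in place of 15, 1 cytosolic gene was lower in place of 0, 1 cytosolic gene was a DEG in place of 2, the cytosolic median was 0.2, and the mitochondrial median and TXN2 went to -0.06. Median-of-ratios scaling put both of these at -0.001. Without the filter on FPKM, 1 mitochondrial gene fell in place of 2 and the cytosolic median was 0.225, since more genes then entered. Counting genes of both compartments as mitochondrial gave 8 higher genes and a median of 0.333. Leaving out each library gave 1 to 2 mitochondrial genes that fell and a mitochondrial median between -0.033 and 0.077, and 511 to 561 DEGs over all genes. GLRX2 against GLRX turned to -0.019 with a pseudocount of 0.1. Apart from the construction of these settings, the cause was not tested. Libraries of the same replicate number did not deviate together (correlations of -0.027, -0.005 and 0.09), so no pairing by number was seen. With 3 libraries per group, this check cannot show whether dishes were handled in pairs. With the replicate number as a block, 4414 genes were higher and 3618 lower, 1 mitochondrial gene fell in place of 2, and among the listed genes the calls of GSTM4 and PRDX3 were lost. Genes such as GPX3, GSTA4 and GSTT2B, with 24 to 138 fragments per library, are limited by depth.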
